A study of Homo sapiens with 6 samples.

Results

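HOX genes are the homeobox transcription factor genes that tell cells of an embryo where along the head-to-tail axis they lie. All 38 genes whose symbol is HOXA, HOXB, HOXC or HOXD followed by a number were taken from the table of 30960 genes, 11 of HOXA on chromosome 7, 9 of HOXB on chromosome 17, 9 of HOXC on chromosome 12 and 9 of HOXD on chromosome 2. Their choice used the symbol and no measured value. HOXB1 is not analysed here. The cells were HEK293, a line made from human embryonic kidney, given a plasmid that encodes GFP fused to PKI1-24 (PKI) or, as the control, GFP fused to inPKI1-24 (inPKI). PKI proteins hold protein kinase A, the kinase that cAMP switches on, inactive. Both groups therefore carried a GFP fusion plasmid, delivered with a lipid reagent at 158 ng per square centimetre, and RNA was taken after 48 h. There were 3 PKI libraries and 3 inPKI libraries, lettered A to C within the group. The study speaks of triplicates and does not say that the libraries came from separate days or passages, so p-values measure the spread between these libraries, which may be technical. GFP is not among the genes of the table, so the share of cells that took up the plasmid was not analysed here, and a larger change in fewer cells and a smaller change in more cells cannot be told apart.

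Within each cluster the genes stand in a row and are read in 1 direction. Genes at the low-numbered end are switched on early and pattern the hindbrain and neck, and genes at the high-numbered end are switched on late and pattern the trunk, limbs, kidney and genital tract. This match between position and time or place of use is called collinearity. HOX proteins bind DNA through the homeodomain, often beside PBX and MEIS partners, and the clusters are kept silent by Polycomb complexes and kept active by MLL (KMT2) complexes. In cultured cells a HOX pattern is often carried on from the tissue of origin.

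Levels are given in CPM, reads scaled by library size and TMM factors by the authors. Levels of single genes are set against each other per kilobase of exon (CPM per kb). Sums over clusters or number ranges are in CPM without a length, so they also depend on exon length and on the number of genes. Reads recovered from the CPM numbered 17244715 to 23589438 per library in PKI and 18707086 to 21387137 in inPKI. A single read was worth 0.0333 to 0.0437 CPM, so that the limit a count of 0 allows, 3 reads, lay at 0.0998 to 0.131 CPM. This covers counting error only. PKIA, the gene of the alpha form of PKI, measured 43.2, 42.3 and 46.1 CPM in PKI A, B and C, against 9.05, 11.3 and 8.65 CPM in inPKI A, B and C (log2 change 2.08 ± 0.088 SE, adjusted p = 5.64e-09, limma). The libraries separated by their labels, and plasmid reads cannot be told from the cells' own PKIA mRNA. VIM at 560 to 652 CPM and NEFM at 118 to 136 CPM over the 6 libraries, genes known to be read in HEK293 cells, were present, PAX2 lay at 0.579 to 1.31 CPM and EPCAM lay under 1 CPM in every library.

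The sequences shown first are of a high and a low neighbour at the tip of the HOXD cluster, and whether they bear on the level was not tested. HOXD13 and HOXD12 stood side by side on the chromosome and near opposite ends of the order of levels. Their promoters, 250 bases before to 50 bases after the RefSeq start, are shown 5′ to 3′ from RefSeq on GRCh38.p14, with CG pairs in capitals.
HOXD13, chr2:176092471-176092770, plus strand: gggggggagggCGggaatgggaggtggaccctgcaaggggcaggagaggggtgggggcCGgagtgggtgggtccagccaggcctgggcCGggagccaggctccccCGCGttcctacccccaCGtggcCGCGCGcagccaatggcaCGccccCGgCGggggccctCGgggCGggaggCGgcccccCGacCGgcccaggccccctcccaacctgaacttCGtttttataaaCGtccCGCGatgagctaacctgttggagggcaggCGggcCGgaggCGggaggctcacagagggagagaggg
HOXD12, chr2:176099545-176099844, plus strand: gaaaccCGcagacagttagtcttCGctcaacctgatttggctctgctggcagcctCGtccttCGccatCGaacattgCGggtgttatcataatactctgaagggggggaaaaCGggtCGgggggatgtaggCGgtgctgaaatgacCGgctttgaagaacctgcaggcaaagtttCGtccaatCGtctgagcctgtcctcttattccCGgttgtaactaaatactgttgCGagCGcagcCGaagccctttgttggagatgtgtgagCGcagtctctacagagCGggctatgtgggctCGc
The HOXD13 window held 24 CG pairs and the HOXD12 window 19. RefSeq windows matched 19 of the 38 genes, at 25 distinct places. None was of a HOXB gene, HOXB9 included, and HOXC had only a window shared by HOXC4 and HOXC5. The rest were of HOXA and HOXD genes, several of them of HOXA3. The median number of CG pairs in the 25 windows was 23 (0 to 44), against 14 over all 34943 promoter windows of the table. Because PKI acts on cAMP signalling, the cAMP response element was searched on both strands as TGACGTCA, and it was in 0 of the 25 HOX windows, against 1.84% of all windows. Its 5-letter part TGACG, which also lies inside the full element, was in 7 of the 25 HOX windows (28.0%), against 24.5% of all windows. The letters TATAAA, on either strand, were in 5 of the 25 windows (20.0%), HOXD13 among them, against 11.6% of all windows. These are matches of letters in a short window and not sites of a factor.

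The other sequences shown are the homeoboxes of 3 genes numbered 9, HOXB9, HOXC9 and HOXD9, since HOXB9 was the HOX gene with the highest level. Each is the 180 bases that encode the homeodomain, from GENCODE 29 transcripts on GRCh38, with the 6 codons of the DNA-reading helix that begin at the conserved tryptophan in capitals. The coordinates are those of the whole gene.
HOXB9, chr17:48621159-48626356, minus strand: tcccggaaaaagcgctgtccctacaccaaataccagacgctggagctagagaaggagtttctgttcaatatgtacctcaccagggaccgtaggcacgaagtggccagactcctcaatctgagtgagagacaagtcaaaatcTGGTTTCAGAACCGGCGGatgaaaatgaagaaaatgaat
HOXC9, chr12:53994895-54003337, plus strand: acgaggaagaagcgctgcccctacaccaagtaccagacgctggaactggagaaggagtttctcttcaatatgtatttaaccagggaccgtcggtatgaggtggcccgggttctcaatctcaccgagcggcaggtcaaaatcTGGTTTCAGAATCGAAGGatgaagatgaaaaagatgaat
HOXD9, chr2:176122720-176124937, plus strand: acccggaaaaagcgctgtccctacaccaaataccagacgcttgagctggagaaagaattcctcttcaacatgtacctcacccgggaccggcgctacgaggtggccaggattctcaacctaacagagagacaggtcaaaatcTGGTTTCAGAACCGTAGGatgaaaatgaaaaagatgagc
Between pairs of these homeoboxes 82.2% (HOXB9 and HOXC9) to 84.4% (HOXB9 and HOXD9) of the bases were the same, and the encoded homeodomains shared 55 to 58 of 60 residues. The longest identical run was 40 bases, between HOXB9 and HOXD9, and 20 or 23 bases in the other pairs. Runs of 50 bases were also compared over whole transcripts, counting only matches in the same orientation. Of the 38 genes 18 shared no such run with any other gene, 21 shared at most 1% of their runs and 11 shared over 10%. Genes on the other strand are not in these shares. HOXA7, at 0% here, has 62.5% of its exon bases covered by HOXA-AS3 on the other strand. The largest shares were 76.5% for HOXD4, 61.8% for HOXD3, 58.9% for HOXC5 and 28.3% for HOXA4, so counts of these 4 genes can be split with overlapping genes and are less certain.

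The tested HOX genes ran in level per length from HOXA2, above 8.2% of all tested genes, to HOXB9, with HOXB9 and HOXD13 highest. HOXB9, known in mouse for shaping the thoracic ribs, had the highest level at 52.2 CPM per kb over the 6 libraries (48.1 to 53.8), above 96.05% of all tested genes. HOXD13, which patterns digits and is the gene of synpolydactyly, followed at 40.0 CPM per kb (36.3 to 43.0), above 94.6% of tested genes. HOXA5, a gene of lung and airway development, was the third at 19.6 CPM per kb (18.8 to 20.9). HOXD12, which was not tested, was the lowest of the 38 at 0.171 CPM per kb, above 1.03% of tested genes. The median HOX gene lay at 3.90 CPM per kb, against 4.24 CPM per kb over 14242 tested genes with a length.

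Ordered by CPM per kb, the ranges over the 6 libraries overlapped in 30 of the 37 pairs of neighbours. The gaps without overlap came after HOXB9, after HOXD13, after HOXA5, after HOXA9 (17.8 CPM per kb), after HOXD10 (10.8), after HOXD8 (1.69) and after HOXA2 (0.497). Neighbours among HOXA10, HOXA11, HOXB6 and HOXD10, at 10.8 to 11.8 CPM per kb, did not differ beyond their spread. With the longest transcript or the coding length in place of the union of exons, 9 and 8 of the 10 highest genes were the same, and HOXB9, HOXD13 and HOXD12 kept places 1, 2 and 38. HOXA9 took place 3 by both lengths, and HOXA5 fell to place 4 by the longest transcript and 5 by the coding length.

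**Figure D1:**
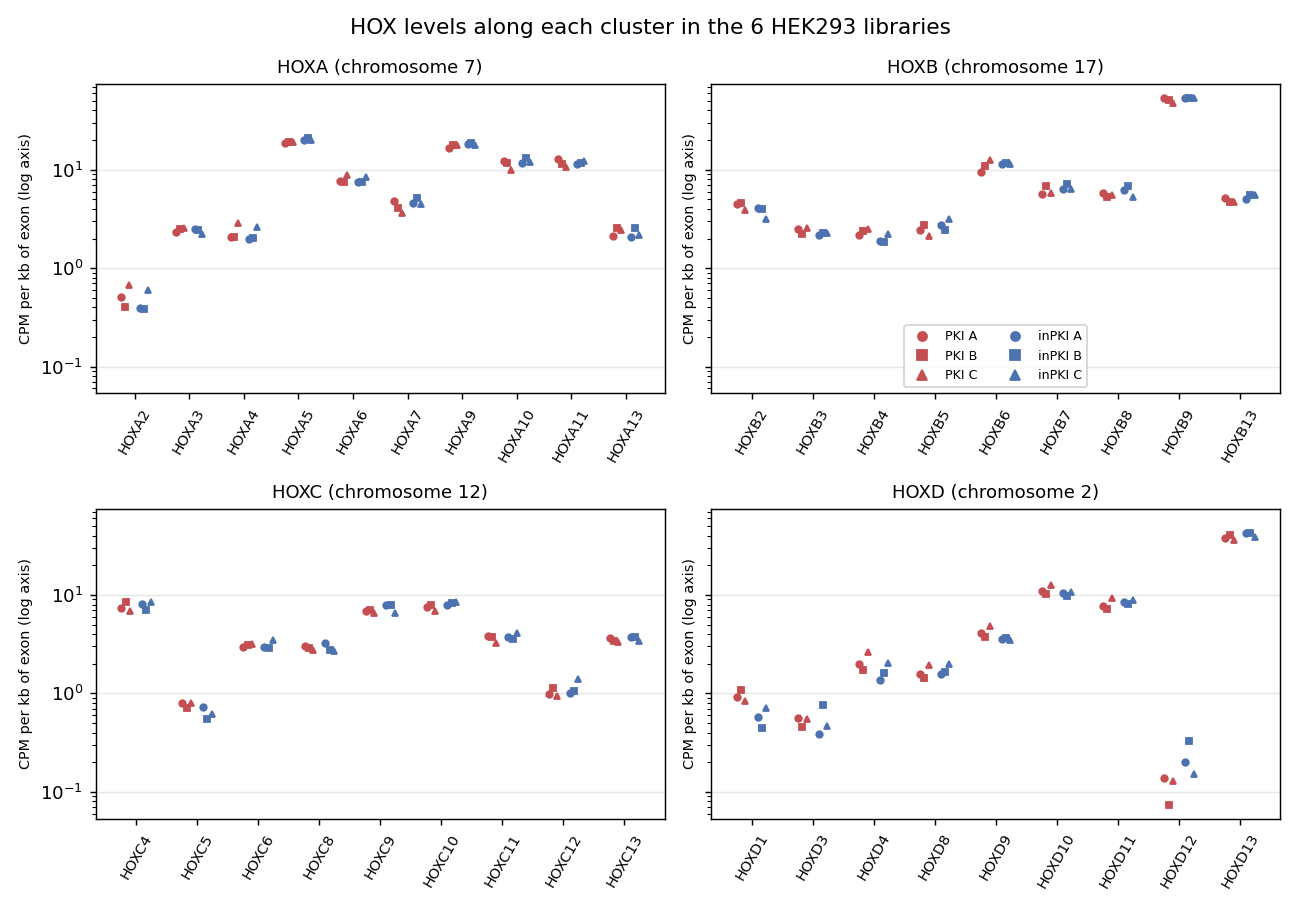
Each point is the level of a HOX gene in 1 library, in CPM per kb of exon on a log axis, with the genes in order of number along HOXA, HOXB, HOXC and HOXD and PKI points left of inPKI points. HOXB9 and HOXD13 stand highest at 52.2 and 40.0 CPM per kb on average and HOXD12 lowest at 0.171, and the points of the 6 libraries lie close together beside the range between genes.

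Between PKI and inPKI, no HOX gene passed the test. Of the 38 genes 37 entered it, with at least 1 CPM in at least 3 of the 6 libraries, and 0 of 37 had an adjusted p below 0.05 in limma, where 0.126% of the 14275 tested genes did (0.0981% with PKI higher and 0.028% with PKI lower). The lowest adjusted p was 0.244, for HOXD1. At an unadjusted p below 0.05 stood 2 of 37 (5.41%), HOXD1 and HOXB4, both higher in PKI, against 13.7% of all tested genes (7.53% with PKI higher and 6.16% with PKI lower). With edgeR on the recovered reads 0 of 37 passed after adjustment, against 0.0771% of tested genes, and 3 (HOXB4, HOXD1 and HOXD13) had an unadjusted p below 0.05, against 15.6%. With DESeq2 0 of 37 passed, against 1.51%, and 1 (HOXD1) had an unadjusted p below 0.05, against 11.9%. By the authors' deposited table, none (0) of the 37 HOX genes with an adjusted p was below 0.05, the lowest p was 0.0611, for HOXD1, and 14 genes of the whole table were below 0.05 after adjustment. The authors' deposited table gives a mean signal above 0 for 2069 genes that are at 0 in all 6 libraries, so it may rest on other or more libraries and is not a second test of the same 6.

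The intervals show how large a change these libraries leave room for. Log2 changes of log2(CPM + 1), PKI minus inPKI, ran from -0.18 to 0.43 over the 37 genes with a median of -0.056, against a median of -0.0074 over all tested genes. They were above 0 in 14 of 37 (37.8%), against 47.4% of all tested genes, and below 0 in 23 of 37 (62.2%), against 52.6%. Median log2 changes were -0.0064 for the 11 tested HOXA genes, -0.077 for the 9 HOXB genes, -0.056 for the 9 HOXC genes and 0.065 for the 8 tested HOXD genes. All 37 of the 95% intervals lay within a 2-fold change in either direction on that scale, and 36 lay within 1.5-fold, the exception being HOXD1. Most tested genes did the same, 14196 of 14275 within 2-fold and 13545 within 1.5-fold, so such bounds are not particular to HOX genes. The pseudocount of 1 understates changes of the genes with low CPM, so for these the bound is not one on the fold itself. With a pseudocount of 0.25 CPM the log2 change of HOXD1 was 0.62 ± 0.22 (SE). The PKI and inPKI libraries did not overlap in 6 of 37 genes (16.2%), against 19.7% of all tested genes (10.9% with PKI higher and 8.88% with PKI lower). HOXD1 and HOXD9 were the ones with PKI higher, and HOXA5, HOXA9, HOXB9 and HOXC10 the ones with PKI lower.

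**Figure D2:**
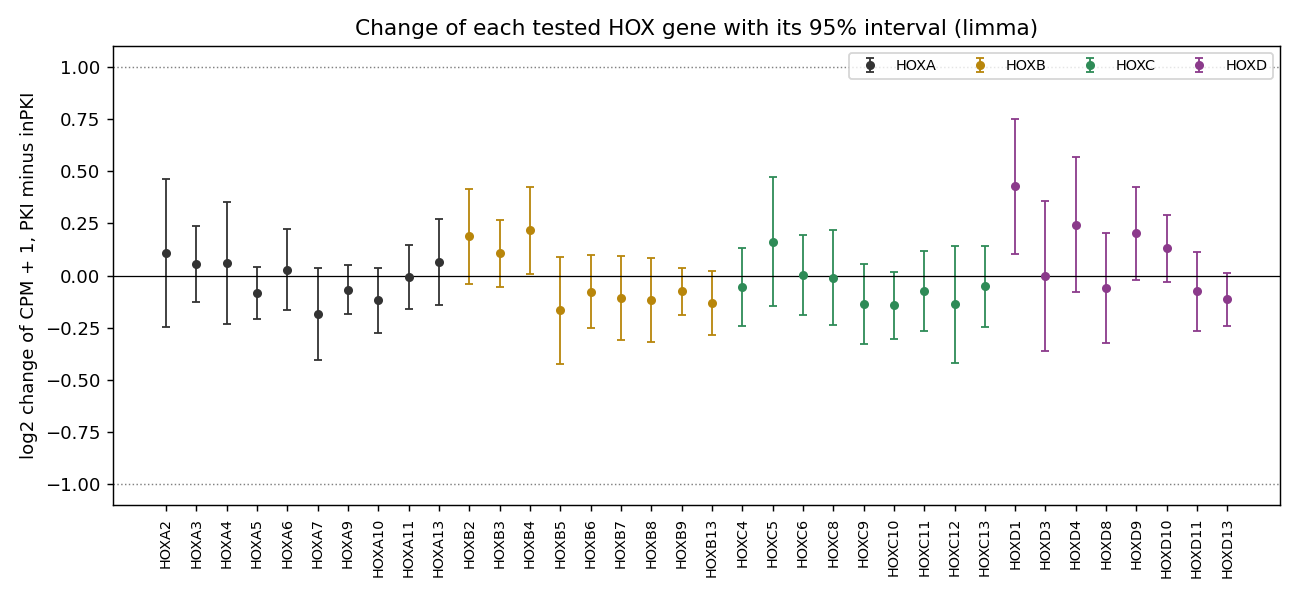
Points are the log2 change of CPM + 1, PKI minus inPKI, of 36 of the tested HOX genes and bars are limma's 95% intervals, coloured by cluster, with dotted lines at a 2-fold change. All bars lie between the dotted lines on this scale, which understates the fold of genes with low CPM, and HOXD1 has the highest change at 0.43.

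HOXD1, the lowest-numbered gene of its cluster, known in mouse for the wiring of pain-sensing neurons, had the largest change. It measured 1.81, 2.13 and 1.66 CPM in PKI A, B and C, against 1.13, 0.875 and 1.41 CPM in inPKI A, B and C, from 49, 64 and 38 reads in PKI and 29, 24 and 34 reads in inPKI. All 3 PKI libraries were above all 3 inPKI libraries. The means were 1.87 ± 0.239 CPM in PKI and 1.138 ± 0.266 CPM in inPKI (SD, n = 3 each), and the log2 change was 0.43 ± 0.15 (SE; 95% interval 0.11 to 0.75; adjusted p = 0.244, limma). On the scale of edgeR, without the pseudocount of 1, the log2 change was 0.73 (adjusted p = 0.199, edgeR). Over the alternatives its adjusted p lay between 0.199 and 0.614, the last without inPKI B.

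HOXB4, known for the expansion of blood stem cells, was the other gene with a small unadjusted p. It measured 8.12, 8.99 and 9.36 CPM in PKI A, B and C, against 7.099, 7.003 and 8.27 CPM in inPKI A, B and C. PKI A lay below inPKI C, so the groups overlapped. The means were 8.82 ± 0.633 CPM in PKI and 7.46 ± 0.707 CPM in inPKI (SD, n = 3 each). The log2 change was 0.22 ± 0.098 (SE; 95% interval 0.0081 to 0.43; adjusted p = 0.349, limma), and its adjusted p lay between 0.259 and 0.692 over the alternatives.

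HOXB9, the highest HOX gene, measured 136, 133 and 124 CPM in PKI A, B and C, against 137, 139 and 139 CPM in inPKI A, B and C. All 3 inPKI libraries were above all 3 PKI libraries, by a margin that is small beside the level, and PKI C was the lowest. The means were 131 ± 6.38 CPM in PKI and 138 ± 0.954 CPM in inPKI (SD, n = 3 each), and the log2 change was -0.076 ± 0.053 (SE; 95% interval -0.19 to 0.037; adjusted p = 0.544, limma), which did not pass. HOXB9 also had the most reads of the HOX genes.

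HOXD13 measured 85.3, 91.5 and 81.3 CPM in PKI A, B and C, against 95.7, 96.2 and 87.7 CPM in inPKI A, B and C. The groups overlapped through PKI B and inPKI C. The means were 86.03 ± 5.14 CPM in PKI and 93.2 ± 4.76 CPM in inPKI (SD, n = 3 each). The log2 change was -0.11 ± 0.059 (SE; 95% interval -0.24 to 0.012; adjusted p = 0.413, limma).

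HOXA5 measured 32.2, 32.4 and 32.9 CPM in PKI A, B and C, against 33.9, 35.7 and 33.96 CPM in inPKI A, B and C, with all PKI libraries below all inPKI libraries. Its means were 32.5 ± 0.3897 CPM in PKI and 34.5 ± 0.995 CPM in inPKI (SD, n = 3 each), and the log2 change was -0.084 ± 0.058 (SE; 95% interval -0.21 to 0.039; adjusted p = 0.537, limma). HOXC10, a gene of the lumbar spinal cord, measured 17.8, 18.2 and 15.8 CPM in PKI A, B and C, against 18.3, 19.4 and 19.8 CPM in inPKI A, B and C. All 3 PKI libraries again lay below the inPKI libraries. Per kilobase of exon it had the highest mean of the HOXC genes, 7.81 CPM per kb (6.79 to 8.48), which overlapped that of HOXC4 at 7.71 CPM per kb (6.84 to 8.53), and HOXC4 stood above it by the longest transcript and by the coding length. The HOXC10 means were 17.3 ± 1.27 CPM in PKI and 19.1 ± 0.764 CPM in inPKI (SD, n = 3 each), and the log2 change was -0.14 ± 0.075 (SE; 95% interval -0.30 to 0.019; adjusted p = 0.426, limma).

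**Figure D3:**
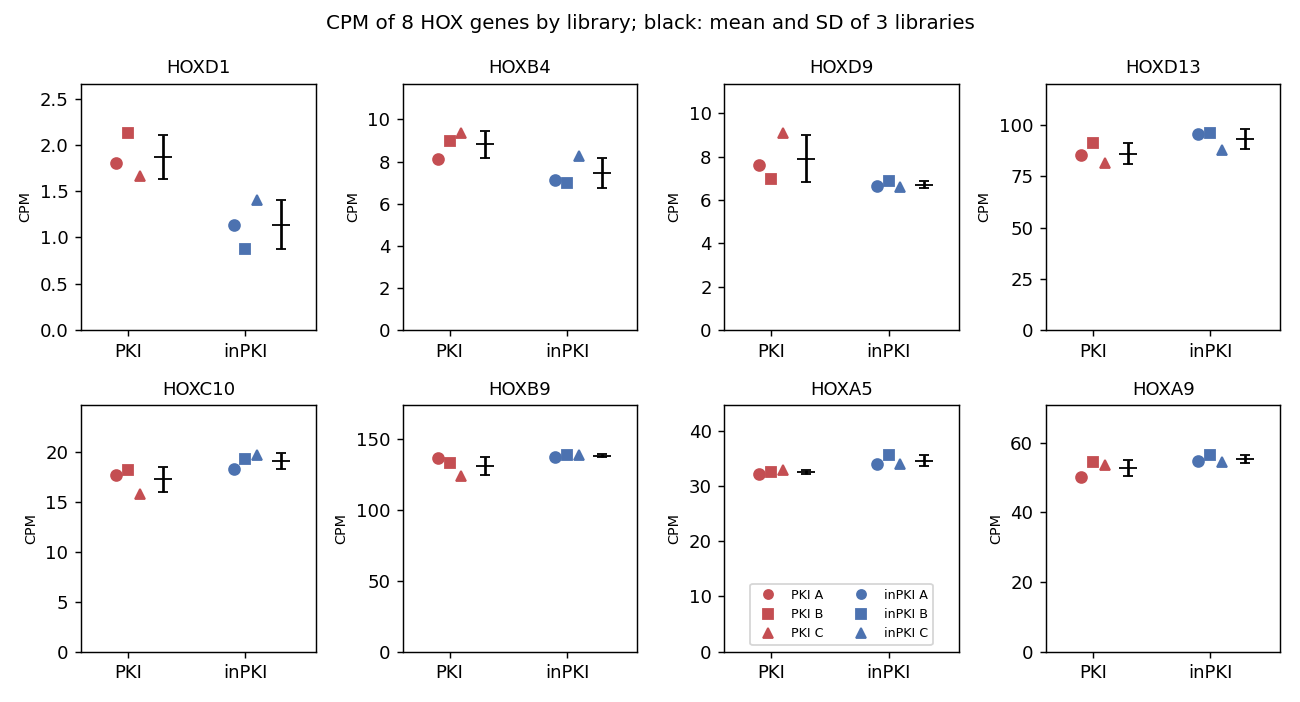
CPM of 8 HOX genes in PKI (left) and inPKI (right), with a marker for each library and the mean and SD of 3 libraries in black, on axes that start at 0. The groups are apart in HOXD1 and HOXD9 with PKI higher and in HOXC10, HOXB9, HOXA5 and HOXA9 with PKI lower, and they overlap in HOXB4 and HOXD13. None of the 8 passed the test.

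The other HOXA genes run from hindbrain to limb and genital tract, and none passed. HOXA2, needed for the outer and middle ear, measured 1.26, 0.998 and 1.66 CPM in PKI A, B and C, against 0.975, 0.948 and 1.49 CPM in inPKI A, B and C. HOXA3, needed for the thymus and parathyroid glands, measured 10.05, 10.8 and 11.02 CPM in PKI A, B and C, against 10.7, 10.4 and 9.51 CPM in inPKI A, B and C. In both the groups overlapped. HOXA4 measured 3.58, 3.63 and 4.99 CPM in PKI A, B and C, against 3.47, 3.501 and 4.55 CPM in inPKI A, B and C. HOXA6 measured 9.79, 9.72 and 11.4 CPM in PKI A, B and C, against 9.67, 9.74 and 10.8 CPM in inPKI A, B and C. In both, the C library was the highest of its group. HOXA7 measured 11.6, 9.75 and 8.75 CPM in PKI A, B and C, against 11.2, 12.5 and 10.8 CPM in inPKI A, B and C, with the lowest log2 change of the 37 genes at -0.18 ± 0.10 (SE; adjusted p = 0.443, limma). HOXA-AS3, a noncoding RNA on the other strand, covers 62.5% of the exon bases of HOXA7 and 39.3% of those of HOXA6, and it measured 8.79, 8.05 and 10.5 CPM in PKI A, B and C, against 6.67, 6.24 and 7.74 CPM in inPKI A, B and C. How the authors' counting treated strand is not given in the sources used here, so its reads and those of HOXA6 and HOXA7 may be mixed.

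HOXA9, a gene of blood stem cells that is often raised in acute leukaemia, measured 50.01, 54.3 and 53.7 CPM in PKI A, B and C, against 54.7, 56.5 and 54.5 CPM in inPKI A, B and C. PKI lay below inPKI in all libraries by a small margin (log2 change -0.069 ± 0.055 SE, adjusted p = 0.5996, limma). HOXA10, a gene of the uterus and limbs, measured 45.2, 43.8 and 37.2 CPM in PKI A, B and C, against 43.8, 48.9 and 44.3 CPM in inPKI A, B and C. HOXA11, needed with HOXC11 and HOXD11 for the kidney in mouse, measured 29.8, 26.3 and 24.8 CPM in PKI A, B and C, against 26.3, 26.9 and 27.96 CPM in inPKI A, B and C. PKI C was the lowest of the 6 libraries in both, and the groups overlapped. HOXA13, the gene of hand-foot-genital syndrome, measured 10.9, 13.04 and 12.3 CPM in PKI A, B and C, against 10.5, 12.98 and 11.04 CPM in inPKI A, B and C, with B the highest library of each group.

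In the HOXB cluster, HOXB2 and HOXB3, both genes of hindbrain patterning, stood on the higher side in PKI. HOXB2 measured 10.4, 10.8 and 9.05 CPM in PKI A, B and C, against 9.52, 9.41 and 7.36 CPM in inPKI A, B and C. HOXB3 measured 18.6, 16.6 and 19.2 CPM in PKI A, B and C, against 16.3, 16.9 and 17.04 CPM in inPKI A, B and C. The groups overlapped in both, and their log2 changes of 0.19 ± 0.11 and 0.11 ± 0.075 (SE) did not pass. HOXB5 measured 4.95, 5.62 and 4.33 CPM in PKI A, B and C, against 5.62, 4.997 and 6.49 CPM in inPKI A, B and C. HOXB6 measured 24.7, 28.4 and 32.3 CPM in PKI A, B and C, against 29.7, 30.5 and 29.5 CPM in inPKI A, B and C. HOXB6 varied more among the PKI libraries than among the inPKI libraries. HOXB7 measured 8.75, 10.4 and 8.79 CPM in PKI A, B and C, against 9.83, 10.8 and 9.64 CPM in inPKI A, B and C. HOXB8, known in mouse for grooming behaviour, measured 11.8, 10.8 and 11.5 CPM in PKI A, B and C, against 12.8, 13.9 and 10.8 CPM in inPKI A, B and C. HOXB13, a gene of the prostate, measured 17.7, 16.4 and 16.4 CPM in PKI A, B and C, against 17.6, 19.0 and 19.1 CPM in inPKI A, B and C. Its log2 change was -0.13 ± 0.073 (SE; adjusted p = 0.437, limma), and the groups overlapped because PKI A was just above inPKI A.

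HOXC genes were the lowest cluster in summed CPM and none passed. HOXC4 measured 20.1, 23.1 and 18.6 CPM in PKI A, B and C, against 21.8, 19.3 and 23.2 CPM in inPKI A, B and C. HOXC5 measured 1.44, 1.298 and 1.44 CPM in PKI A, B and C, against 1.33, 0.985 and 1.12 CPM in inPKI A, B and C. HOXC6, a gene of motor neurons of the forelimb in mouse, measured 10.5, 11.05 and 11.3 CPM in PKI A, B and C, against 10.5, 10.2 and 12.3 CPM in inPKI A, B and C. For HOXC5 the count is uncertain, because RP11-834C11.14 covers 59.9% of its exon bases. HOXC8 measured 5.72, 5.46 and 5.16 CPM in PKI A, B and C, against 6.12, 5.25 and 5.13 CPM in inPKI A, B and C. HOXC9, which marks the thoracic spinal cord in mouse, measured 11.4, 11.7 and 10.9 CPM in PKI A, B and C, against 13.3, 13.4 and 11.04 CPM in inPKI A, B and C. The HOXC8 log2 change was -0.0097 ± 0.11 and the HOXC9 log2 change was -0.14 ± 0.089 (SE), with overlap in both. HOXC11 measured 12.4, 12.3 and 10.5 CPM in PKI A, B and C, against 12.2, 11.6 and 13.3 CPM in inPKI A, B and C. HOXC12 measured 3.32, 3.83 and 3.11 CPM in PKI A, B and C, against 3.39, 3.54 and 4.72 CPM in inPKI A, B and C. HOXC13, a gene of hair and nails, measured 8.90, 8.25 and 8.05 CPM in PKI A, B and C, against 8.97, 9.08 and 8.19 CPM in inPKI A, B and C. PKI C was the lowest library in all 3.

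In the HOXD cluster PKI C stood highest in several genes and lowest in HOXD13. HOXD3 measured 1.99, 1.63 and 1.97 CPM in PKI A, B and C, against 1.37, 2.74 and 1.65 CPM in inPKI A, B and C. HOXD4 measured 2.88, 2.53 and 3.85 CPM in PKI A, B and C, against 1.99, 2.37 and 2.98 CPM in inPKI A, B and C. AC009336.19 covers 62.2% of the exon bases of HOXD3 and 80.5% of those of HOXD4, and it measured 1.85, 1.63 and 2.54 CPM in PKI A, B and C, against 2.77, 0 and 2.03 CPM in inPKI A, B and C. In inPKI B, the library where AC009336.19 had 0 reads, HOXD3 was at its highest and HOXD4 was not. How reads were split between these genes was not tested. HOXD8 measured 4.17, 3.79 and 5.07 CPM in PKI A, B and C, against 4.17, 4.304 and 5.21 CPM in inPKI A, B and C. HOXD9 measured 7.61, 6.99 and 9.098 CPM in PKI A, B and C, against 6.63, 6.89 and 6.58 CPM in inPKI A, B and C, with all PKI libraries above all inPKI libraries. Its means were 7.898 ± 1.08 CPM in PKI and 6.70 ± 0.169 CPM in inPKI (SD, n = 3 each), and limma gave 0.20 ± 0.10 as its log2 change (SE; adjusted p = 0.412, limma). HOXD10, a gene of the lumbar spinal cord and limbs, measured 29.8, 27.7 and 33.99 CPM in PKI A, B and C, against 28.2, 26.3 and 28.5 CPM in inPKI A, B and C. HOXD11 measured 16.3, 15.2 and 19.6 CPM in PKI A, B and C, against 17.9, 17.03 and 18.8 CPM in inPKI A, B and C. PKI C was the highest of the 6 libraries in HOXD4, HOXD9, HOXD10 and HOXD11. HOXD12, the 1 gene not tested, measured 0.185, 0.0998 and 0.175 CPM in PKI A, B and C, against 0.273, 0.438 and 0.207 CPM in inPKI A, B and C, from 5, 3 and 4 reads in PKI and 7, 12 and 5 reads in inPKI, which is too few for a fold.

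Summed over a cluster, the HOX genes took nearly the same share of the transcriptome in both groups. All 38 genes summed to 695, 702 and 683 CPM in PKI A, B and C, against 712, 728 and 716 CPM in inPKI A, B and C, a log2 ratio of the means of -0.052. All 3 PKI sums lay below all 3 inPKI sums. The HOXA sum was 211 ± 3.74 CPM in PKI and 219 ± 7.19 CPM in inPKI, and the HOXB sum was 239 ± 3.69 CPM in PKI and 248 ± 2.89 CPM in inPKI (SD, n = 3 each). The HOXC sum was 90.6 ± 5.19 CPM in PKI and 95.8 ± 3.09 CPM in inPKI, and the HOXD sum was 153 ± 3.45 CPM in PKI and 156 ± 2.42 CPM in inPKI (SD, n = 3 each). The clusters' shares of the HOX sum were 30.4, 34.5, 13.1 and 22.0% for HOXA, HOXB, HOXC and HOXD in PKI, against 30.5, 34.5, 13.3 and 21.7% in inPKI. In the HOXB sum HOXB9 weighs most and in the HOXD sum HOXD13, and without these the log2 ratios were -0.023 for HOXB and 0.091 for HOXD, against -0.052 and -0.029 with them.

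**Figure D4:**
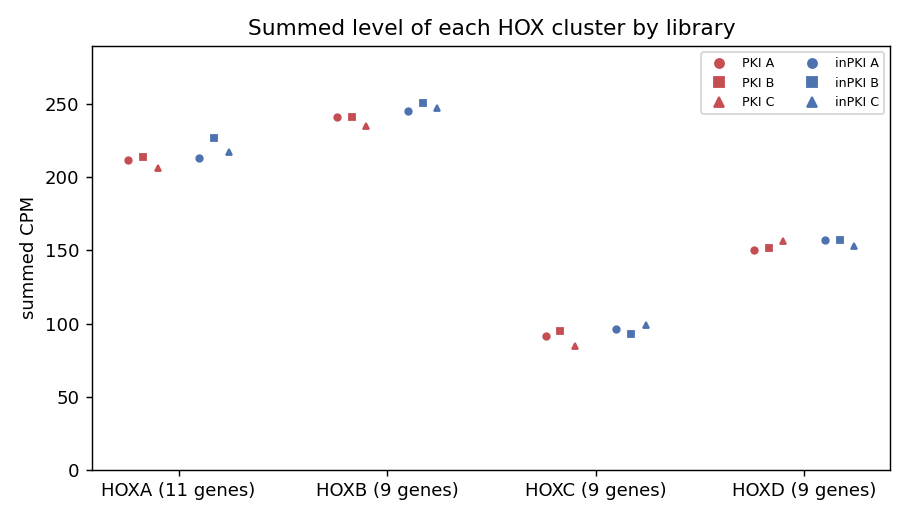
Each point is the summed CPM of a HOX cluster in 1 library, PKI left and inPKI right. The HOXB sums are the highest, at 239 CPM in PKI and 248 CPM in inPKI on average, where PKI lies below inPKI without overlap, and the groups overlap in HOXA, HOXC and HOXD.

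By position in the cluster, the genes numbered 9 to 13 made up 69.5, 68.8 and 67.5% of the HOX sum in PKI A, B and C, against 69.5, 69.6 and 69.1% in inPKI A, B and C. Genes numbered 1 to 4 made up 12.4, 12.8 and 13.1% of it in PKI A, B and C, against 11.6, 11.3 and 11.98% in inPKI A, B and C. The low-numbered share was thus higher in each PKI library than in each inPKI library. Median levels were 2.26 CPM per kb for the 11 genes numbered 1 to 4, 4.47 CPM per kb for the 11 numbered 5 to 8 and 7.47 CPM per kb for the 16 numbered 9 to 13. The log2 change was above 0 in 8 of 11 genes numbered 1 to 4, in 3 of 11 numbered 5 to 8 and in 3 of 15 tested genes numbered 9 to 13, against 47.4% of all tested genes. Median log2 changes were 0.11, -0.077 and -0.076. Without PKI C the counts were 7 of 10, 2 of 11 and 4 of 15, against 56.1% of all tested genes, and the medians were 0.049, -0.089 and -0.037. With a pseudocount of 5 CPM the medians were 0.041, -0.067 and -0.064. These number ranges were chosen after the values were seen, and none of the genes in them passed the test.

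The spread between libraries of a group was mostly above counting error. The variance of a HOX gene's reads within groups was 2.15 times that of counting alone at the median (0.413 to 7.60). Over 12809 tested genes with a like number of reads the median was 2.31. The variance was above that of counting in 31 of the 37 HOX genes, against 10357 of these 12809 genes. HOXA10 at 7.60, HOXD13 at 7.10 and HOXB6 at 6.48 varied most. PKI C was the highest library in 12 and the lowest in 13 of the 37 genes, 67.6% in all, against 58.7% of all tested genes, and it had the fewest reads. The share of HOX genes in which a library was the highest or the lowest was 45.9% for inPKI B, against 32.6% of all tested genes, and 37.8% for inPKI C, against 27.4%. Without inPKI B 0 of 37 HOX genes passed (lowest adjusted p = 0.614, limma). Without PKI C 0 of 36 HOX genes passed (lowest adjusted p = 0.261, limma). In inPKI C the sum of the keratinocyte markers stood apart, at 77.3 CPM. It was 36.6 and 41.1 CPM in the other inPKI libraries and 34.3 to 42.2 CPM in PKI. KRT5, KRT6A and KRT14 were highest in inPKI C, at 26.5, 18.7 and 12.2 CPM, as were TP63, DSG3, IVL and SFN at low levels. KRT10 was not raised there, at 12.66 CPM against 12.91 and 12.98 CPM in inPKI A and B, and neither were KRT1 and LOR. Without inPKI C 0 of 36 HOX genes passed (lowest adjusted p = 0.290, limma), and 6 of the 36 had an unadjusted p below 0.05. In the main fit 13.7% of all tested genes did. The share of all tested genes without inPKI C is not given here, so the 6 are not read as a trait of HOX genes. The part of these libraries' differences in the HOX values was otherwise not tested.

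Genes that work with or on the HOX clusters were counted from lists made of textbook knowledge. In the main limma fit 0 members of any list passed after adjustment. Among 11 tested TALE genes (PBX, MEIS, PKNOX and TGIF), the family that holds the HOX partners PBX and MEIS, the log2 change was above 0 in 6 and below 0 in 5. MEIS3 had the smallest p, with 7.24, 7.05 and 7.52 CPM in PKI A, B and C, against 6.01, 5.54 and 6.74 CPM in inPKI A, B and C (log2 change 0.22 ± 0.10 SE, adjusted p = 0.343, limma). All 3 PKI libraries were above the inPKI libraries. The ParaHox and EVX genes are the closest relatives of the clusters, and 2 of the 5 in the table were tested. Of these, 1 had a log2 change above 0 and 1 below. CDX2, an activator of HOX genes in the embryo and gut, measured 24.3, 24.2 and 23.5 CPM in PKI A, B and C, against 28.2, 29.3 and 26.9 CPM in inPKI A, B and C. All PKI libraries were lower, and the log2 change was -0.22 ± 0.063 (SE; adjusted p = 0.1698, limma).

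Of the regulators of cluster chromatin, 22 of 36 tested Polycomb genes had a log2 change above 0, with a median of 0.0076, against 47.4% above 0 and a median of -0.0074 over all tested genes. An unadjusted p below 0.05 with PKI higher was found in 4 of the 36, against 7.53% of all tested genes, and with PKI lower in 0, against 6.16%. PHC3, a subunit of Polycomb repressive complex 1, measured 29.7, 27.8 and 37.7 CPM in PKI A, B and C, against 22.8, 22.2 and 26.1 CPM in inPKI A, B and C (log2 change 0.40 ± 0.097 SE, adjusted p = 0.127, limma). Its groups did not overlap. Of 22 tested MLL, COMPASS and DOT1L genes 13 had a log2 change above 0, with a median of 0.021. An unadjusted p below 0.05 was found with PKI higher in 6 of the 22 and with PKI lower in 1, against the same 7.53% and 6.16% of all tested genes. KMT2C, a histone H3 lysine methyltransferase of the MLL family, measured 95.2, 91.2 and 111 CPM in PKI A, B and C, against 77.7, 70.4 and 79.5 CPM in inPKI A, B and C. All PKI libraries were higher, and the log2 change was 0.38 ± 0.072 (SE; adjusted p = 0.0568, limma). KMT2C has near-identical copies elsewhere in the genome, so its count is uncertain. With DESeq2 its adjusted p was 0.000334 and that of PHC3 was 0.0141, and over all alternatives the adjusted p lay between 0.000334 and 0.384 for KMT2C and between 0.0124 and 0.492 for PHC3.

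Of 11 tested noncoding RNA and PRAC genes inside the clusters, 5 had a log2 change above 0 and 6 below. HOXA-AS3 had the smallest p (log2 change 0.36 ± 0.11 SE, adjusted p = 0.198, limma) with the values given beside HOXA7. Among 20 tested genes that flank the clusters 10 were above 0 and 10 below. ATP5G1, a subunit of ATP synthase beside HOXB, measured 99.0, 101 and 84.9 CPM in PKI A, B and C, against 110, 109 and 108 CPM in inPKI A, B and C (log2 change -0.20 ± 0.064 SE, adjusted p = 0.207, limma). Its PKI libraries all lay lower, and DESeq2 gave an adjusted p of 0.0382, the range over all alternatives being 0.0382 to 0.550. Retinoic acid is the classical inducer of low-numbered HOX genes, and of 16 tested genes of its receptors and response 6 were above 0 and 10 below. NRIP1, a corepressor of nuclear receptors, had the smallest p of these. It measured 27.5, 28.1 and 27.5 CPM in PKI A, B and C, against 27.2, 23.3 and 24.2 CPM in inPKI A, B and C (log2 change 0.15 ± 0.069 SE, adjusted p = 0.355, limma). Of 16 tested kidney developmental factors 8 were above 0 and 8 below, and SIX4, a factor of early kidney and muscle, had the smallest p. It measured 25.9, 26.99 and 29.6 CPM in PKI A, B and C, against 23.8, 23.6 and 24.7 CPM in inPKI A, B and C (log2 change 0.19 ± 0.067 SE, adjusted p = 0.258, limma).

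Of the markers of other cells, 1 of 8 leukocyte genes, 2 of 10 fibroblast genes and 5 of 10 keratinocyte genes in the table were tested. The leukocyte genes summed to 2.81, 2.36 and 2.54 CPM in PKI A, B and C, against 2.89, 1.82 and 2.15 CPM in inPKI A, B and C, with CD3E at 0 in every library. The fibroblast genes summed to 24.0, 20.5 and 21.8 CPM in PKI A, B and C, against 21.1, 22.2 and 19.7 CPM in inPKI A, B and C. COL1A1, at 16.4 to 20.3 CPM over the 6 libraries, made up most of this sum, and DCN was at 0 in every library. Smallest in p were, of the fibroblast genes, COL1A1 (adjusted p = 0.706, limma) and, of the keratinocyte genes, KRT5 (adjusted p = 0.399, limma). KRT5, a keratin of basal epidermis, measured 12.2, 11.5 and 9.84 CPM in PKI A, B and C, against 13.2, 10.2 and 26.5 CPM in inPKI A, B and C, with inPKI C far above the rest. Of the 9 tested HEK293 check genes NEFL had the smallest p, at 60.9, 62.9 and 55.6 CPM in PKI A, B and C, against 67.6, 69.2 and 68.8 CPM in inPKI A, B and C (log2 change -0.19 ± 0.057 SE, adjusted p = 0.178, limma).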

How the data were processed

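RNA-seq libraries were made from total RNA with an mRNA kit, per the labels' protocols. Per the submitters' processing notes, the build hg19 and the tools DESeq2 1.20.0, RSEM 1.3.0, STAR 2.5.2b and cutadapt 1.14 were named, without role or order. The authors deposited a table of CPM for 30960 genes, whose name gives RSEM and TMM. The authors' deposited comparison holds, per the file headers, a mean signal, a log2 fold change, a Wald score and p-values. Its log2 fold change runs opposite to its signed fold in all 30960 rows and was turned to PKI over inPKI. In 2069 genes at 0 in all 6 libraries its mean signal is above 0. Every CPM value (100%, tolerance 0.01 reads) was a whole multiple of 1 read's worth. The recovered reads may be rounded RSEM estimates.

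Genes with at least 1 CPM in at least 3 of 6 libraries (14275) were tested as log2(CPM + 1) with limma 3.58.1 in R 4.3.3 (2-sided, with a mean-variance trend). P-values were adjusted by Benjamini-Hochberg over all of these, with a threshold of 0.05. A change is PKI minus inPKI, and its error is limma's moderated SE. The smallest p that an exact permutation of 3 libraries against 3 can give is 0.1. Alternatives used edgeR 4.0.16 and DESeq2 1.42.0 on recovered reads, pseudocounts of 0.25 and 5 CPM, no filter, other rescaling, no trend, a replicate block and each library left out. Lengths and positions come from GENCODE 29 on GRCh38 by identifier (30795 matched, 165 did not). They are not positions of the authors' alignment to hg19. The tests were tried on simulated data. The naming rule asks for values of every tested HOX gene, full statistics for those at an unadjusted p below 0.05 and for the highest of each cluster, and from each list the smallest p. HOXD9, HOXA7, HOXA9 and HOXB13 were added to these after their values were seen. A few genes and a sequence that it covers are not reported here. The members and the lists were chosen with earlier results of these data known. Figures were drawn with matplotlib 3.10.9.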

Additional observations from a re-analysis of the deposited data

How the results depend on the processing

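The count of HOX genes past the threshold was 0 under every alternative, with a lowest adjusted p of 0.199 (edgeR) to 0.614 (limma without inPKI B). Between 0 and 6 HOX genes had an unadjusted p below 0.05. In the main fit these were 2 of 37, against 13.7% of all tested genes. With edgeR they were 3, against 15.6%, and with DESeq2 1, against 11.9%. For the other alternatives the share of all tested genes is not given here, so the range is not read as a trait of HOX genes. Deviations of libraries that share the letter A, B or C were only weakly correlated (0.0171, 0.0138 and 0.0283), although each library correlated best with its own letter. Whether the letters mark a shared culture or day cannot be told from these values. With a replicate block the HOX count was 0, and the count over all genes was 124 in place of 18. That count was 4 without a filter on low values, 4 without a trend, 11 after rescaling to an equal sum, 11 with edgeR, 216 with DESeq2 and 9 to 121 on leaving out each library in turn (9 without inPKI B, 121 without PKI B). KMT2C passed with the block, with DESeq2 and without each of the PKI libraries. Summed CPM without the highest member gave log2 ratios of -0.023 for HOXB and 0.091 for HOXD.

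Among the named genes, the direction turned under some alternative in those that follow. HOXD3 was at 0.0093 with a pseudocount of 0.25 CPM and 0.0050 after rescaling to an equal sum. HOXA11 was at 0.0028 after that rescaling, 0.0053 with edgeR and 0.0049 with DESeq2. On leaving out libraries, log2 changes ran from -0.14 to 0.19 for HOXD3, -0.078 to 0.050 for HOXA11, -0.17 to 0.018 for HOXB6, -0.15 to 0.022 for HOXD8, -0.047 to 0.078 for HOXC6, -0.051 to 0.058 for HOXC8, -0.040 to 0.075 for HOXA6, -0.065 to 0.16 for HOXA4 and -0.14 to 0.0098 for HOXC4. HOXA2, HOXC5, HOXD1, HOXD3, HOXD4 and HOXD12, with the fewest reads, are those whose values depth limits most.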
